A study of Homo sapiens with 15 samples.

Results

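Epithelial cells are held together by E-cadherin and its catenin partners and carry a scaffold of keratin filaments, and cells that pass through an epithelial to mesenchymal transition can exchange these proteins for vimentin, fibronectin and N-cadherin. The genes described here are 10 standard markers of that balance, chosen by symbol: CDH1, CTNNA1, KRT8, KRT18 and KRT19 on the epithelial side, and VIM, FN1, CDH2, SNAI2 and ZEB1 on the mesenchymal side. Of these, 8 had a row among the 17272 genes of the table, and CDH2 (N-cadherin) and ZEB1 were not analysed here. Members were taken by gene symbol, and the set was proposed with earlier results of these data known.

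The cells were LNCaP, an androgen-sensitive human prostate cancer line of epithelial, luminal character. They were kept for 2 days in medium with 10% charcoal-stripped serum, which is poor in androgen, and then treated for 22 h with 1 nM of the synthetic androgen R1881, which all 15 libraries share. In 10 libraries R1881 was combined with the solvent DMSO, and in 5 with 2 µM enzalutamide, a drug given to prostate cancer patients to block signalling by androgens. The comparison therefore shows how these genes differed when androgen signalling was blocked in the presence of androgen, in a single cell line and without a library from cells free of both agents. Library numbers in the labels run from 51 to 55 and from 71 to 75 for R1881 + DMSO, and from 81 to 85 for R1881 + enzalutamide. No run holds both treatments, so a difference that came with the run cannot be told apart from one that came with enzalutamide. The sources used here do not give what separates the runs, and the labels do not say whether libraries came from separate cultures, although the study's methods call them biological replicates, so the p-values measure the spread between these libraries, which may be technical.

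Snail family factors such as SNAI2 (Slug) and zinc finger factors such as ZEB1 are known as repressors of CDH1, and their induction is the classical start of the transition. Keratins 8 and 18 pair with each other as the main filament proteins of simple epithelia, including the luminal cells of the prostate. Vimentin is the filament protein of mesenchymal cells, and fibronectin is a glycoprotein of the extracellular matrix that cells bind through integrins.

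Poly(A) RNA was sequenced, and the authors deposited a normalized signal per gene, called CPM in the study and below. It summed to between 985580 and 1078567 per library, so it had been rescaled beyond division by the library total. Each value gave back a whole number of reads within a tolerance of 0.01 reads. Between 15830745 and 24316740 reads fell on genes in the R1881 + DMSO libraries (median 23194075) and between 21188661 and 25416052 in the R1881 + enzalutamide libraries (median 21893693). The test was that of limma on log2(CPM + 0.5), run over the 17046 genes with a mean of at least 0.5 CPM, a filter that all 8 genes passed. A log2 fold change below is the enzalutamide minus the DMSO value on that scale, which understates the change of genes with few reads, and adjusted p-values are from Benjamini-Hochberg adjustment over all genes tested. As a check of the treatment, the androgen targets KLK2, KLK3, TMPRSS2 and FKBP5 were 30.4-fold, 11.8-fold, 11.9-fold and 32.1-fold lower in mean CPM with enzalutamide. The defining genes of leukocytes were not analysed here (0 of 5 had a row), and those of the luminal prostate had rows for 11 of 11 genes, of which 7, including KLK2, KLK3 and TMPRSS2, were lower and 4 higher with enzalutamide. HOXB13, a luminal factor, stood at 283 CPM with DMSO and 316 CPM with enzalutamide, with overlapping ranges.

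With enzalutamide, genes of the same side did not all move together. The 3 keratins and SNAI2 were at least 2-fold lower, CTNNA1 was slightly lower, FN1 and VIM were higher, and CDH1 did not differ by the test. Of the 8 genes, 5 fell and 2 rose at an adjusted p under 0.05, where 32.7% of all genes tested fell and 29.8% rose, so that 62.5% of all genes were called in either direction and a call alone said little. By size, 4 of the 8 were called and at least 2-fold lower, against 4.19% of all genes. The ranges of the treatments did not overlap for 7 of the 8 genes, against 37.2% of all genes tested. KRT8, KRT19 and SNAI2 lay within the lowest 1% of log2 fold changes, and the median over all genes was -0.01. These are bulk values, in which fewer cells of a kind and less RNA per cell cannot be told apart.

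**Figure D1:**
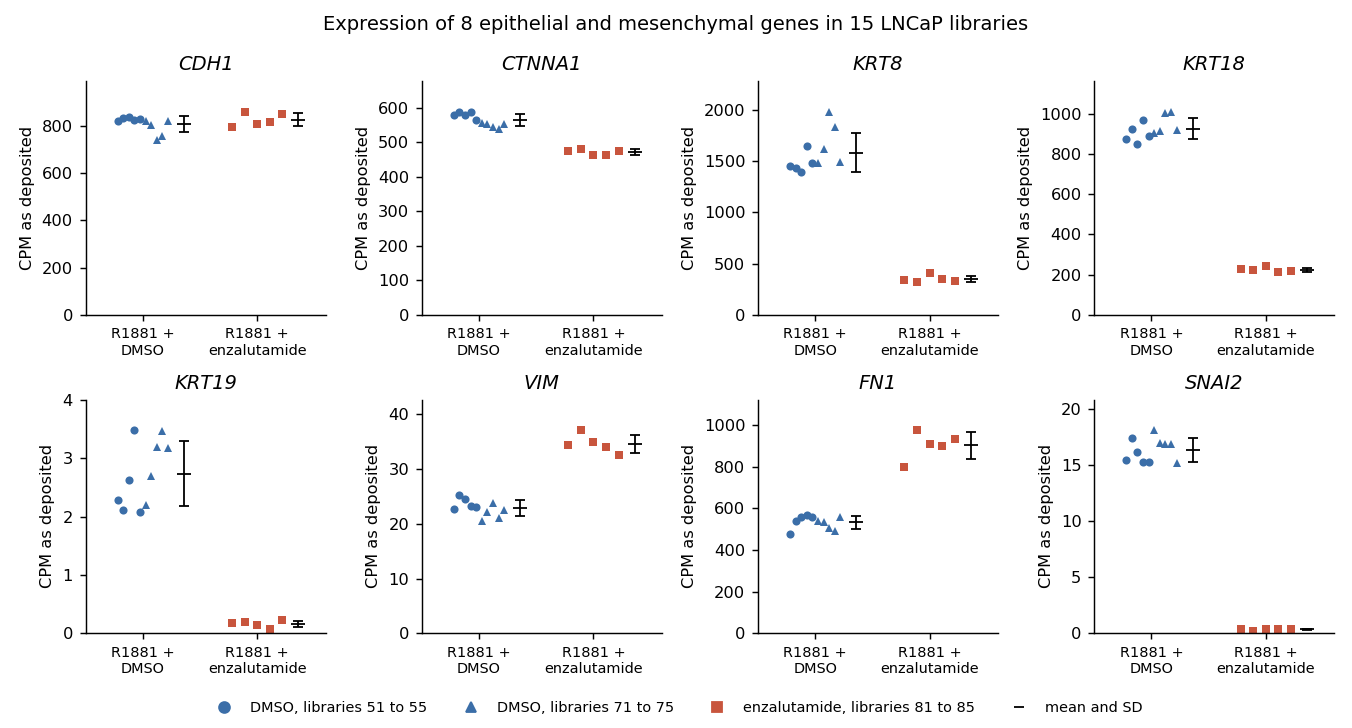
CPM as deposited (vertical axes from 0, a scale of its own for each gene) of the 8 genes in each of the 15 libraries, with the mean and SD of each treatment drawn beside the points. The treatments are separate in every panel but that of CDH1, and the 5 enzalutamide values of SNAI2 and KRT19 lie close to 0.

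KRT8, on chromosome 12 (52897187-52949954, minus strand, GRCh38), ranged from 1398 to 1984 CPM in the DMSO libraries, with a median of 1484 CPM. With enzalutamide it was at 342, 321, 404, 346 and 328 CPM in libraries 81 to 85. Every enzalutamide library was thus far below the lowest DMSO library. The mean of 1581 ± 192 CPM (SD, n = 10) with DMSO compares with 349 ± 32.8 CPM (SD, n = 5) with enzalutamide, a 4.54-fold fall, with a log2 fold change of -2.18 (SE 0.072, limma adjusted p 2.36e-16).

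KRT18, the partner of KRT8 and its neighbour on the opposite strand (chromosome 12, 52948871-52952906), ranged from 851 to 1011 CPM with DMSO, with a median of 917 CPM. The enzalutamide libraries 81 to 85 held 226, 221, 242, 211 and 218 CPM, again with no overlap. The mean fell from 925 ± 53.0 CPM (SD, n = 10) with DMSO to 223 ± 11.6 CPM (SD, n = 5), which is 4.14-fold lower (log2 fold change -2.05, SE 0.041, limma adjusted p 4.29e-20). The ratio of KRT8 to KRT18 within a library, which does not depend on how libraries are scaled, was 1.704 ± 0.122 with DMSO and 1.558 ± 0.0937 with enzalutamide. Its ranges overlapped (1.55 to 1.98 and 1.45 to 1.67), so the partners fell by nearly the same factor. Exons of the genes overlap on opposite strands, and the sources used here do not give the strand setting of the counting, so reads from that stretch cannot be assigned to either gene.

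Both keratins have many processed pseudogenes, copies of the mRNA inserted elsewhere in the genome, and 50-base reads can match gene and copy alike. As an example, a stretch of 50 coding bases of KRT18 is printed from the GENCODE v44 transcripts (GRCh38). Beside it stand an identical copy and one that differs in a single base. The stretch was searched for as the first with such a pair, so it does not show how close the copies are in general. Over the whole alignment KRT18P17 and KRT18P15 were 93.8% and 92.7% identical to KRT18. KRT18P11 and KRT18P10, which had higher CPM, were left out of the search. Capitals mark the base that differs from the keratin. The KRT18 stretch lies at chr12:52951509-52951558 on the plus strand, that of KRT18P17 at chr3:12787939-12787988 on the minus strand and that of KRT18P15 at chr3:32259623-32259672 on the plus strand.
KRT18: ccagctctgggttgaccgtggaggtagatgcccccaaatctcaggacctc
KRT18P17: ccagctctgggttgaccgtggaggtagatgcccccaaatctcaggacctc
KRT18P15: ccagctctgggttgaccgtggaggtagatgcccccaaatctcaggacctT

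Of the 1735 windows of 50 bases in the KRT8 mRNA, 669 (38.6%) occurred letter for letter in at least 1 of its 27 pseudogenes with a row, and of the 1364 windows of KRT18, 479 (35.1%) occurred in at least 1 of 28. The rows of these pseudogenes were not empty. Summed over the 27 rows, the KRT8 copies held 1275 ± 109 CPM with DMSO and 281 ± 15.4 CPM with enzalutamide, and the 28 KRT18 copies held 725 ± 37.9 CPM and 177 ± 11.5 CPM. Relative to the keratin itself, the KRT8 copies stood at 0.810 times the CPM of KRT8 under both treatments, and the KRT18 copies at 0.783 times with DMSO and 0.792 times with enzalutamide. The sources used here do not give how reads that match several places were counted, and reads of the keratins and of their copies cannot be told apart from the table.

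The copies followed the keratins. Of the 27 KRT8 pseudogene rows, 26 fell, each within 0.5 of KRT8 on the log2 scale, and of the 28 KRT18 rows 27 fell, beside 32.7% of all genes. The median log2 fold change was -2.09 over the KRT8 rows and -1.88 over the KRT18 rows. KRT8P3, whose transcript is 97.1% identical to KRT8, went from 441 to 91.7 CPM. KRT8P10 went from 71.8 to 16.8 CPM and KRT8P45 from 156 to 35.1 CPM. Of the copies printed above, KRT18P17 went from 68.2 to 16.9 CPM and KRT18P15 from 56.2 to 13.8 CPM. Only KRT8P12 among the KRT8 rows was called higher (5.30 to 6.56 CPM, log2 fold change 0.30, limma adjusted p 0.0133), with overlapping ranges, and it shares 4 of the windows with KRT8. KRT18P59 did not differ by the test (0.963 and 1.07 CPM, limma adjusted p 0.589), and it shares 0 windows with KRT18 and is the least alike of the KRT18 copies at 84.9% identity. Other rows that share few windows did fall. KRT18P37, which also shares 0 windows with KRT18, went from 4.54 to 1.26 CPM, and KRT8P46, which shares 3 with KRT8, from 11.25 to 2.69 CPM. Summing each keratin with its copies left the log2 fold changes at -2.18 for KRT8 and -2.04 for KRT18. The copies stood at nearly the same ratio to the keratin under both treatments, so the sums had to fall by nearly the same factor. The part that shared reads had in the fall of these rows was not tested.

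**Figure D2:**
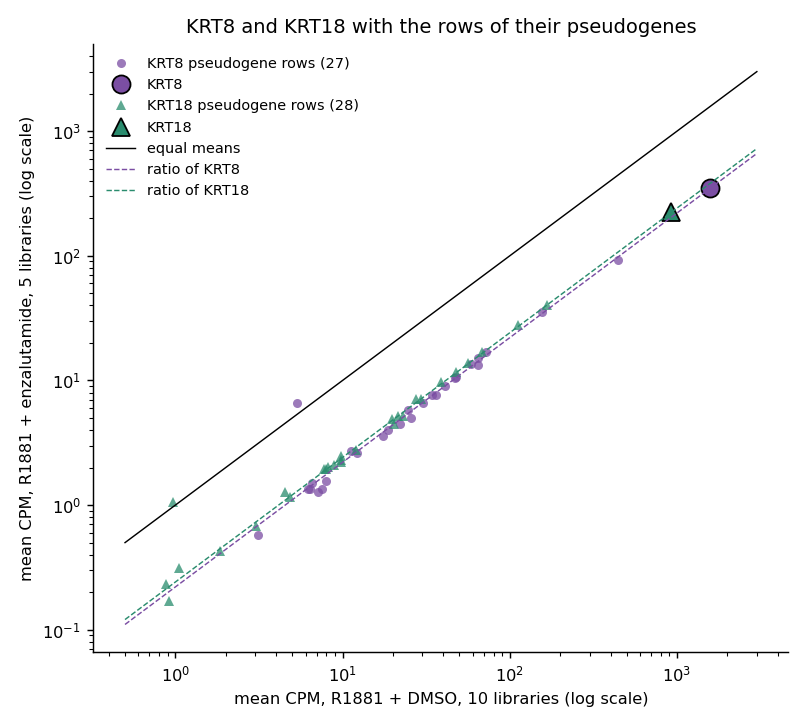
Mean CPM with R1881 + DMSO (horizontal, log scale) against mean CPM with R1881 + enzalutamide (vertical, log scale) for KRT8, KRT18 and the 27 and 28 rows of their pseudogenes. Nearly all points follow the dashed lines, which mark the ratio of the parent keratin, and a single row of each family lies near or above the solid line of equal means.

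KRT19, a smaller keratin of simple epithelia and ducts (chromosome 17, 41523617-41528308, minus strand), was read far less often. With DMSO it ranged from 2.07 to 3.48 CPM (median 2.67 CPM, 44 to 72 reads per library). In libraries 81 to 85 it stood at 0.182, 0.186, 0.140, 0.0784 and 0.225 CPM, which is 2 to 5 reads per library. The lowest DMSO library was well above the highest enzalutamide library, and the mean fell by 94.1% from 2.73 ± 0.559 CPM (SD, n = 10) with DMSO to 0.162 ± 0.0557 CPM (SD, n = 5). The log2 fold change was -2.27 (SE 0.12, limma adjusted p 6.83e-13). Pooled reads gave a difference of 16.8-fold, from 544 reads against 18, with an exact binomial 95% interval of 10.6 to 28.6 that covers counting error only. The KRT19 mRNA shared 0 windows of 50 bases with that of KRT18.

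CDH1 encodes E-cadherin, the adhesion receptor of the adherens junction (chromosome 16, 68737292-68835537, plus strand). It ranged from 742 to 839 CPM with DMSO, with a median of 823 CPM. Libraries 81 to 85 held 796, 862, 807, 818 and 851 CPM. These ranges overlap, although the highest value was an enzalutamide library and the 2 lowest were DMSO libraries 73 and 74. The means were 809 ± 33.3 CPM (SD, n = 10) and 827 ± 28.2 CPM (SD, n = 5), and the log2 fold change of 0.03 had a 95% confidence interval from -0.04 to 0.10 (limma adjusted p 0.434). A change larger than these bounds in either direction was therefore not found with the deposited scaling. The call depended on scaling and test: with library totals set equal the log2 fold change was 0.12 (limma adjusted p 0.0011), and with edgeR it was 0.07 (adjusted p 0.0343).

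CTNNA1 encodes alpha-catenin, which links the cadherin complex to actin (chromosome 5, 138610967-138935034, plus strand). The DMSO libraries ranged from 537 to 588 CPM, with a median of 559 CPM. The enzalutamide libraries 81 to 85 held 474, 481, 463, 464 and 475 CPM, all below the lowest DMSO library. The mean fell by 16.4%, from 564 ± 18.2 CPM (SD, n = 10) with DMSO to 471 ± 8.03 CPM (SD, n = 5), with a log2 fold change of -0.26 (SE 0.028, limma adjusted p 9.39e-08). This is the smallest of the 7 called changes, and its ratio to CDH1 within a library went from 0.697 ± 0.0186 to 0.570 ± 0.0154 with no overlap.

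VIM encodes vimentin (chromosome 10, 17228241-17237593, plus strand) and was present at a low level. It ranged from 20.6 to 25.2 CPM with DMSO (median 22.9 CPM). In libraries 81 to 85 it stood at 34.3, 37.1, 34.9, 34 and 32.6 CPM. All enzalutamide libraries were above the highest DMSO library. The mean rose 1.51-fold, from 22.9 ± 1.43 CPM (SD, n = 10) with DMSO to 34.6 ± 1.66 CPM (SD, n = 5), with a log2 fold change of 0.59 (SE 0.050, limma adjusted p 1.96e-09). VIM-AS1, an RNA on the opposite strand whose exons overlap those of VIM, had 0.693 CPM with DMSO and 1.25 CPM with enzalutamide, and without knowledge of the strand setting reads of the pair cannot be told apart where their exons overlap.

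FN1 encodes fibronectin (chromosome 2, 215360440-215436073, minus strand). The DMSO libraries ranged from 476 to 567.7 CPM, with a median of 540 CPM. Libraries 81 to 85 held 801, 977, 908, 899 and 935 CPM, and the lowest of them, library 81, was still above every DMSO library. The mean rose 1.69-fold, from 534 ± 32.1 CPM (SD, n = 10) with DMSO to 904 ± 65.2 CPM (SD, n = 5), with a log2 fold change of 0.76 (SE 0.047, limma adjusted p 1.04e-11). FN1 stood at rank 981 from the top of the 17046 genes, so that 5.76% of genes had a log2 fold change as high. Within a library, the ratio of FN1 to CDH1 CPM was 0.660 ± 0.0319 with DMSO and 1.09 ± 0.0507 with enzalutamide.

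Beside the rise of VIM and FN1, fibroblast markers also moved. Of 8 such genes, 3 had a row (COL1A1, COL3A1 and LUM), and their summed level was 6.36 to 10.5 CPM with DMSO and 21.2 to 26.7 CPM with enzalutamide, while COL1A2, DCN, PDGFRA, PDGFRB and THY1 were not analysed here. The endothelial marker with a row, VWF (1 of 5), went from 2.08 to 2.84 CPM up to 2.84 to 3.35 CPM. The part of other cells in the VIM and FN1 values was not tested. For the keratins, the basal epithelial markers were represented by KRT14 alone (1 of 5), at 0.706 to 1.44 CPM with DMSO and 0 to 0.279 CPM with enzalutamide. The 11 luminal markers, which include KRT8 and KRT18 and several androgen targets, summed to 7108 to 8654 CPM with DMSO and 3730 to 3835 CPM with enzalutamide.

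SNAI2 encodes Slug, a transcriptional repressor of CDH1 and a classical driver of the transition (chromosome 8, 48917598-48921740, minus strand). With DMSO it ranged from 15.2 to 18.1 CPM (median 16.5 CPM, 224 to 412 reads per library). In libraries 81 to 85 it stood at 0.364, 0.233, 0.419, 0.354 and 0.403 CPM, from 5 to 9 reads per library. The treatments were separated by more than an order of magnitude. The mean fell by 97.8%, from 16.3 ± 1.04 CPM (SD, n = 10) with DMSO to 0.354 ± 0.0733 CPM (SD, n = 5), with a log2 fold change of -4.30 (SE 0.070, limma adjusted p 1.39e-21). Only 14 of the 17046 genes had a lower log2 fold change. Pooled reads gave a difference of 46.1-fold, 3310 reads against 40, with an exact binomial 95% interval of 33.8 to 64.7 for counting error. In the same libraries and with the deposited scaling, the log2 fold change of CDH1, which SNAI2 is known to repress, lay within the bounds given above. With library totals set equal CDH1 stood at 0.12 and with edgeR at 0.07, called higher in both.

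**Figure D3:**
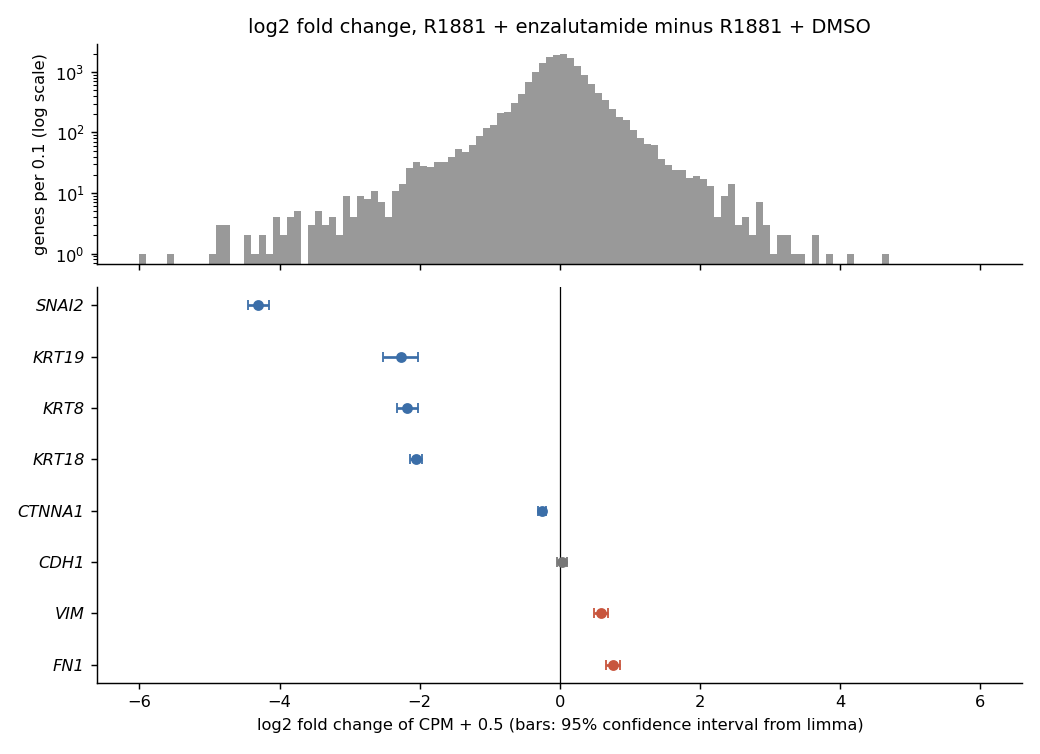
Upper panel: number of genes (log scale) per 0.1 of log2 fold change, enzalutamide minus DMSO, over all 17046 genes tested. Lower panel: log2 fold change of the 8 genes on the same horizontal axis with 95% confidence intervals from limma, with SNAI2 at -4.30, the 3 keratins between -2.27 and -2.05, and FN1 at 0.76.

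Levels were compared between genes as CPM per kilobase, since a longer mRNA gives more reads. Over the union of annotated exons, mean levels with DMSO were 302 for KRT18, 230 for KRT8, 133 for CDH1, 63.8 for CTNNA1, 31.0 for FN1, 4.98 for SNAI2, 4.42 for VIM and 1.17 for KRT19. With enzalutamide, CDH1 at 136 CPM per kilobase was above KRT18 at 72.8, CTNNA1 at 53.4, FN1 at 52.5 and KRT8 at 50.7, followed by VIM at 6.68, SNAI2 at 0.108 and KRT19 at 0.0694. On this length, and without the reads in the pseudogene rows, CDH1 went from below both keratins to above them. Over the canonical transcript, a length chosen after the values were seen, KRT8 (886) stood above KRT18 (655) and VIM (10.6) above SNAI2 (7.49) with DMSO, and with enzalutamide KRT8 (195) stood above CDH1 (172) and KRT18 (158). The order of these neighbours therefore depended on the length used. Even after its rise, vimentin was far below KRT8 and KRT18, though above KRT19 under both treatments, with a ratio of VIM to KRT18 CPM of 0.0248 ± 0.00228 with DMSO and 0.155 ± 0.00930 with enzalutamide.

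The 10 DMSO libraries allowed a look at the spread within a treatment. Libraries 71 to 75 and 51 to 55 differed for 553 of 16810 genes (3.29%) in limma at an adjusted p under 0.05, and 0 of the 8 genes were among them, although 3 (CDH1, CTNNA1 and KRT8) had an unadjusted p under 0.05, as did 24% of all genes. Leaving out single libraries gave 56 to 969 genes. By edgeR the runs differed for 575 of the same 16810 genes, again with 0 of the 8 among them. By edgeR 2 of the 8 had an unadjusted p under 0.05, a share that was not counted over all genes. For CDH1 the run 71 to 75 was entirely lower (742 to 821 CPM) than the run 51 to 55 (824 to 839 CPM), a log2 difference of -0.08, and for CTNNA1 the log2 difference was also -0.08 (537 to 554 CPM against 564 to 588 CPM). Non-overlap of the runs was seen for 6.75% of all genes. On the log2 scale, the difference between the runs was larger in size than that between treatments for CDH1 and smaller for CTNNA1. When each run was compared with enzalutamide alone, CTNNA1 stood at -0.30 against libraries 51 to 55 and at -0.22 against 71 to 75, FN1 at 0.74 and 0.78, VIM at 0.53 and 0.64, KRT8 at -2.09 and -2.26, and SNAI2 at -4.26 and -4.34, all called. CDH1 stood at -0.01 (limma adjusted p 0.867) and 0.07 (limma adjusted p 0.141).

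Libraries also differed in how their values followed base composition. Deviations of a library from its treatment mean rose with the GC content of genes most strongly in DMSO libraries 73 (Spearman's rho 0.793, over 11368 genes that are no independent replicates) and 74 (0.654) and in enzalutamide library 83 (0.801), and ran the other way in libraries 51, 52, 53, 82 and 85 (-0.716 to -0.535). KRT8, with a GC content of 59.3% beside a median of 47.9% over genes, had its highest values in libraries 73 and 74 among DMSO and in 83 among enzalutamide. CDH1, at 48.2%, had its lowest values in 73 and 74. SNAI2, with the lowest GC content of the 8 at 41.2%, showed no such order. Without libraries 73, 74 and 83 the log2 fold changes were -2.16 for KRT8, -4.32 for SNAI2, 0.73 for FN1 and 0.01 for CDH1, and the same 7 genes were called. A GC trend was also fitted to each library's deviations from the mean of all libraries, rather than from its treatment mean. Its removal, which also takes out differences between treatments that follow GC content, left -2.10, -4.26, 0.79 and 0.05 for these genes.

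**Figure D4:**
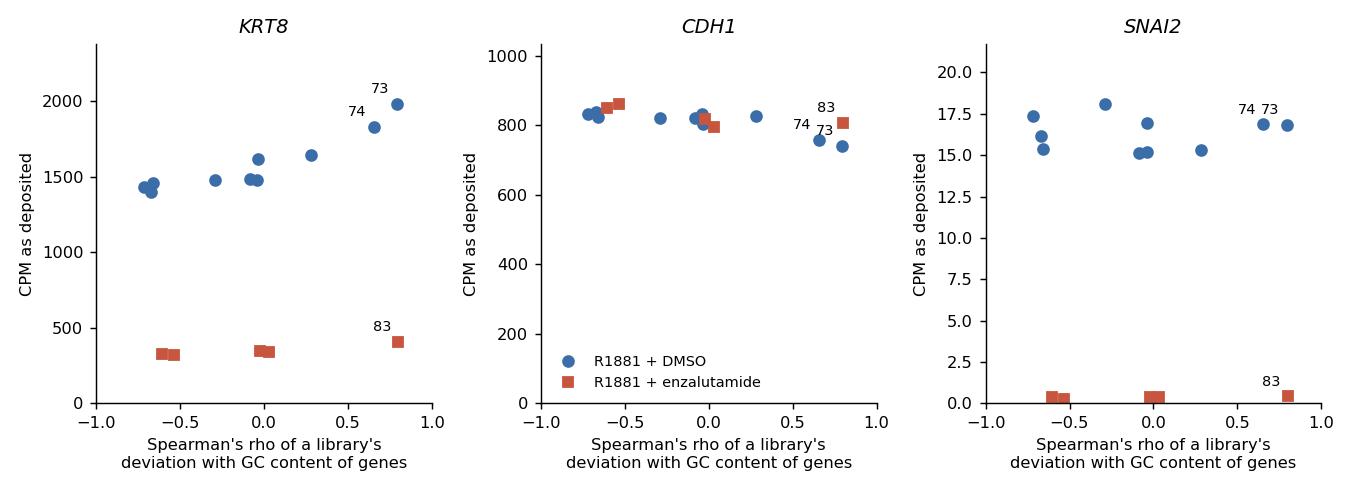
CPM of KRT8, CDH1 and SNAI2 (vertical, from 0) against Spearman's rho between each library's deviation from its treatment mean and the GC content of genes (horizontal, no unit), 1 point per library, with libraries 73, 74 and 83 labelled. KRT8 is highest in the labelled libraries of each treatment, CDH1 is lowest in 73 and 74, and the gap between treatments for KRT8 and SNAI2 is present at every position on the axis.

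The rest of the junction and transition genes were followed in 8 lists written by hand from general knowledge, each described by its counts and by its median log2 fold change beside the median of -0.01 over all genes. The counts are to be read against the 32.7% of all genes that fell, the 29.8% that rose and the 37.5% that did not pass. Among 19 genes of the adherens junction other than CDH1 and CTNNA1, 8 fell, 9 rose and 2 did not pass the test (median 0.15). The other alpha-catenins moved in opposite directions: CTNNA2 fell from 9.02 ± 1.40 to 0.120 ± 0.0844 CPM, and CTNNA3 rose from 8.13 ± 1.28 to 33.2 ± 1.27 CPM (log2 fold changes -3.94 and 1.98). VCL, which encodes the actin-binding protein vinculin, fell from 362 to 178 CPM (-1.02).

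Of 18 tight junction genes tested, 6 fell, 8 rose and 4 did not pass (median -0.05, or 0.04 with library totals set equal). Occludin (OCLN) rose from 108 to 218 CPM (log2 fold change 1.01) and TJP3, a scaffold protein, from 4.99 to 7.64 CPM (0.58, with overlapping ranges), while the claudins CLDN8 and CLDN12 fell from 18.3 to 9.71 CPM (-0.88) and from 209 to 149.9 CPM (-0.48). Of 11 desmosome genes, 5 fell, 1 rose and 5 did not pass (median -0.14). The desmosomal cadherin DSG2 fell from 418 to 271 CPM (-0.62), plakophilin PKP3 from 48.3 to 34.5 CPM (-0.48, with overlapping ranges) and the plakin PPL from 24.4 to 22.1 CPM (-0.14, with overlapping ranges), and PKP4, an armadillo protein of junctions, rose from 44 to 56.3 CPM (0.36). The call of PPL was lost under 10 of 30 alternatives. Only 4 of 18 genes for other keratins and their binding proteins had a row, of which 1 fell, 1 rose and 2 did not pass (median -0.26), and the keratin-binding TCHP rose from 14.7 to 17.7 CPM (0.27).

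Of 19 genes for regulators of the epithelial state and epithelial surface proteins, 8 fell, 5 rose and 6 did not pass (median -0.06, or 0.03 with library totals set equal). The Krüppel-like factors KLF5 and KLF4 fell from 11.8 to 3.53 CPM (log2 fold change -1.62) and from 6.27 to 2.21 CPM (-1.32), and the factor ELF3 rose from 15 to 32.7 CPM (1.10). Of 8 further transition factors tested, 2 fell, 3 rose and 3 did not pass (median 0.18). TWIST1, like SNAI2 a classical inducer of the transition, fell from 4.73 ± 0.761 to 2.26 ± 0.239 CPM (-0.91), SOX9 fell from 33 to 24.4 CPM (-0.43) and KLF8 rose from 1.11 to 2.64 CPM (0.95). None of these factors came near the fall of SNAI2.

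Of 17 further mesenchymal and matrix genes tested, 2 fell, 7 rose and 8 did not pass (median 0.18). The collagen genes COL5A2 and COL3A1 rose from 15.6 ± 0.90 to 144 ± 5.05 CPM (log2 fold change 3.17) and from 1.84 ± 0.480 to 12 ± 0.979 CPM (2.44), and COL1A1 from 6.03 to 9.96 CPM (0.69, with overlapping ranges). TPM1, an actin-binding tropomyosin, fell from 251 to 117 CPM (-1.09). CALD1, which encodes the actin-binding caldesmon and was named after its values were seen, rose from 547 ± 26.5 to 1760 ± 107 CPM (1.68). Of 19 genes for fibronectin receptors and focal adhesions, 5 fell, 8 rose and 6 did not pass (median 0.03). Syndecan-4 (SDC4), a co-receptor for fibronectin, rose from 32.8 to 107 CPM (1.69) and ITGB4, which pairs in the laminin receptor of hemidesmosomes, from 1.84 to 4.26 CPM (1.02). ITGAV, an integrin subunit that binds fibronectin and vitronectin, fell from 294 to 119 CPM (-1.30), and PARVA, an adaptor of focal adhesions, from 76.3 to 23.8 CPM (-1.66). ITGA5, the alpha subunit of the classical fibronectin receptor and named after its values were seen, rose from 22.1 to 30.3 CPM (0.45).

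**Figure D5:**
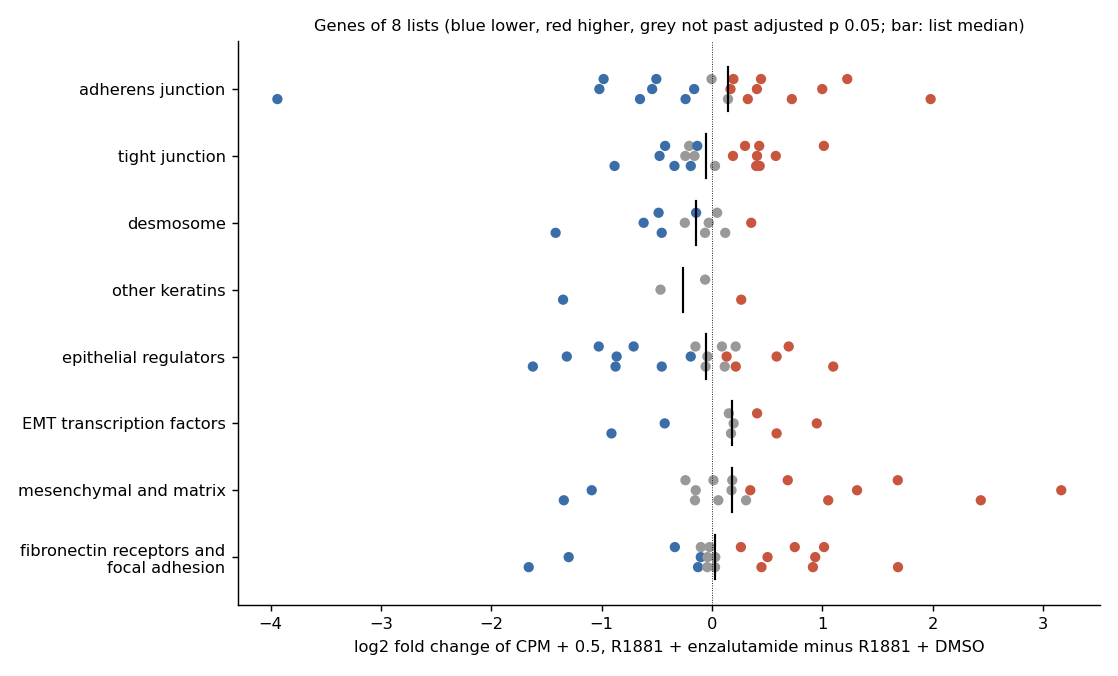
log2 fold change (horizontal, enzalutamide minus DMSO) of each tested gene in the 8 lists (rows), coloured blue where it fell, red where it rose and grey where it did not pass limma at an adjusted p of 0.05, with a bar at the list median. Medians lie between -0.26 and 0.18, close to 0 beside the spread of the genes, and every list holds genes called in both directions.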

How the data were processed

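LNCaP libraries were prepared from poly(A) RNA with a stranded kit and read as single 50-base ends. Per the labels and the submitters' processing notes, the authors used bcl2fastq 2.17, STAR, GRCh38 and featureCounts, and what they deposited is a normalized signal for each gene in each library, called CPM in the study. The sources used here do not give the versions of mapper and counter, the annotation, strand use, the treatment of reads matching several places or the rule for the 17272 rows. The deposited signal summed to between 985580 and 1078567 per library, so it had been rescaled by the authors, and 100% of values came out as whole reads. The sums did not overlap between treatments, at 1053406 to 1078567 with DMSO and 985580 to 1008992 with enzalutamide. Groups follow the sample labels. The text of the study's methods assigns the group sizes the opposite way. All 55 pairs of libraries within a treatment differed by more than sampling noise (chi-square per degree of freedom at least 1.63).

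Tests used limma 3.58.1 (trended variance, treatment as the only term, pseudocount 0.5, minimum mean 0.5, threshold 0.05) in R 4.3.3. Whole reads recovered from the signal were given to edgeR 4.0.16 and DESeq2 1.42.0 as alternatives. The other alternatives were the pseudocount, the filter, the scaling, a block, each DMSO run alone, and each library left out in turn, with GC trend removal, the removal of libraries 73, 74 and 83, and the pseudogene sums added after the values were seen. The genes and lists were chosen with earlier results of these data known. Named from each list were the 2 genes with the lowest and the 2 with the highest log2 fold change among those called with a mean of at least 1 CPM, though not every gene so named is reported here, and other names are marked where they appear or are checks and pseudogenes. A ratio with CDH2 had been planned, and those of FN1 and CTNNA1 to CDH1 stand in its place. Of the list genes, 8 were matched by an older symbol through RefSeq. Positions and sequences are from GENCODE v44, and GC content was known for 85.8% of rows.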

Additional observations from a re-analysis of the deposited data

Results flagged for a closer look

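In 32 groups of library values examined for a sample far from the others, 3 were found, where chance gives about 1.6. The log2 ratio of FN1 to CDH1 was lowest at -0.79 in R1881 + DMSO replicate 9 (library 51), whose gap to the next library was 0.653 of the range of its group. The same ratio was lowest at 0.00896 in R1881 + enzalutamide replicate 3 (library 81), with a gap of 0.734 of the range, and in both libraries the FN1 value was the lowest of its treatment. The number of reads on genes was highest at 25416052 in R1881 + enzalutamide replicate 5 (library 84), with a gap of 0.730 of the range. Leaving out library 51, library 81 or library 84 kept FN1 called higher.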

How the results depend on the processing

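KRT8, KRT18, KRT19, SNAI2, CTNNA1, VIM and FN1 kept their direction and stayed called under every alternative that gave them a value, and 7 of the 8 genes were called whichever library was left out. With a minimum mean of 5 CPM, KRT19 was not tested and 6 genes were called. The log2 fold change ranged from -2.26 to -2.08 for KRT8, from -2.08 to -1.95 for KRT18, from -0.30 to -0.16 for CTNNA1, from 0.53 to 0.68 for VIM and from 0.73 to 0.85 for FN1. Those of KRT19 (-4.07 to -1.67) and SNAI2 (-5.51 to -3.68) moved with the pseudocount and with count models, and few reads remained with enzalutamide. CDH1 changed sign to -0.0068 against DMSO libraries 51 to 55 alone (limma adjusted p 0.867), the cause was not tested, and it was called at 0.12 with library totals set equal and at 0.07 by edgeR. Equal totals moved the genes called from 5577 lower and 5083 higher (52.3% lower) to 4288 and 6629 (39.3% lower) and the median of all genes by 0.0853. Medians of the tight junction list (0.04) and the epithelial regulators (0.03) turned positive with it, the former also with a minimum mean of 5 CPM or no minimum (0.03 in both). That of the fibronectin receptor list lay between -0.04 and 0.08 over all alternatives, and with a minimum mean of 5 CPM those of the other keratins (0.10, 2 genes) and transition factors (-0.14, 2 genes) changed sign. The count of genes called (10660) lay between 8297 and 11064 over the alternatives.

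Deviations of libraries with the same replicate number in the titles were weakly correlated (-0.108 to 0.127), which does not settle whether they were paired. For libraries with the same last digit of the library number, the correlations ran from -0.644 to 0.843. With a replicate block the counts were 10043 genes and 7 of the 8, KRT8 at -2.18, SNAI2 at -4.28 and CDH1 at 0.03 (limma adjusted p 0.569), and with a block for the last digit of the library number 10720 and 7.

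Between the DMSO runs, 553 genes became 56 to 969 when single libraries were left out and 156 without libraries 73 and 74. It was 56, 60, 74 and 86 without libraries 51, 52, 53 and 74, 283, 348 and 353 without 72, 73 and 55, and 969 without 71. The cause was not tested.

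Of 44 other named genes, 41 kept direction and call, and PPL, HOXB13 and KRT8P12 lost the call in at least 1 alternative. KRT19 and SNAI2 with enzalutamide rest on 2 to 9 reads per library, which limits the precision of their folds.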
